A study of Arabidopsis thaliana with 12 samples.

Results

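The cell cycle and DNA replication genes described here are 35 Arabidopsis thaliana genes, taken by locus identifier from a table of 32846 genes. They comprise cyclins of the A, B and D3 types, the B-type cyclin-dependent kinases, genes of mitosis and cytokinesis, the MCM helicase, the replication clamp PCNA with genes for nucleotide supply and a topoisomerase, origin licensing factors and the E2F factors. The rule names the identifiers and uses no measured value, but the 35 genes were chosen with earlier results of these data known. Their shares beside those of all genes are thus descriptions. Whole seedlings of accession Columbia, in which RNA of all organs is pooled, were grown for 7 to 10 days on plates and moved to liquid medium, about 15 plants to a well. After 3 h they received 1 µM AtPep1 or water for 24 h in constant light. Wild type and the mutant labelled rrm/irr, called irr below, were each measured with water and with Pep1, in 3 libraries per group and 12 in all. AtPep1 is a plant peptide that acts as a damage signal and is perceived by receptor kinases at the cell surface, and IRR has been described as an RNA-binding regulator of immunity. The groups hold 1 mutant line, with neither a second allele nor a complemented line, so an effect of the mutation and of any other difference of that line cannot be told apart. The labels call the controls untreated while the protocol names water, and the design text calls the replicates biological without saying whether they came from separate sowings, wells or days, so p-values measure the spread between these libraries.

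Plant cells enter division when D-type cyclins with their kinase partner inactivate the retinoblastoma-related protein and free E2F factors, which switch on genes for DNA synthesis. Licensing factors load the MCM helicase at origins, and PCNA then holds the polymerases on the DNA while ribonucleotide reductase supplies nucleotides. Mitosis is driven by A- and B-type cyclins with B-type kinases, CDC20 then directs the destruction of mitotic proteins, and the new wall is built by vesicle fusion at the cell plate. In a seedling such cells lie mainly in the meristems and young leaves, a small part of the tissue.

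Levels are in FPKM, in which the authors scaled fragments to gene length and library total before deposit. Depth was recovered from the spacing of the values, with gene lengths from a reference. It lay between 17.4 M and 28.6 M reads (M for 1e+06) in 11 libraries and at 56.5 M in irr water replicate 3. The 6 libraries with Pep1 lay between 17.4 M and 21.4 M, and those with water reached higher. The 35 genes rest on 4 to 2151 reads in a library, so counting error is large for the lowest of them. Differences are on the log2(FPKM + 1) scale, which understates the change of low genes, and are given ± SE with limma p-values adjusted by Benjamini-Hochberg over 18177 tested genes at a threshold of 0.05. Of the 35 genes 31 passed the expression filter of at least 1 FPKM in at least 3 libraries. CYCB2;1 (AT2G17620), MCM6 (AT5G44635), CDT1A (AT2G31270) and E2FA (AT2G36010) did not, and are given as values with no test. The locus known as IRR, AT3G23900, stood at 12.8 ± 1.93 FPKM (SD, n = 3) in wild type with water and at 11.95 ± 0.7204 in irr, a difference of -0.08 ± 0.11 (adjusted p = 0.715), so gene-level values do not separate the genotypes at this locus and genotype directions rest on the labels.

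Most of the genes were expressed at low levels. Their median over the 12 libraries was 1.93 FPKM, against 9.51 for all tested genes, 6 had a mean of at least 5 and 7 a mean under 1. The D3 cyclin CYCD3;2 (AT5G67260) was the highest at 23.2 FPKM, followed by the ribonucleotide reductase subunit TSO2 (AT3G27060) at 10.2, CYCD3;3 (AT3G50070) at 8.84 and the cytokinesis syntaxin KNOLLE (AT1G08560) at 6.99. CYCB2;1 was the lowest at 0.434. FPKM is per length, so these levels can be compared between genes. The plot of all genes by library shows these values relative to wild type with water.

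**Figure D1:**
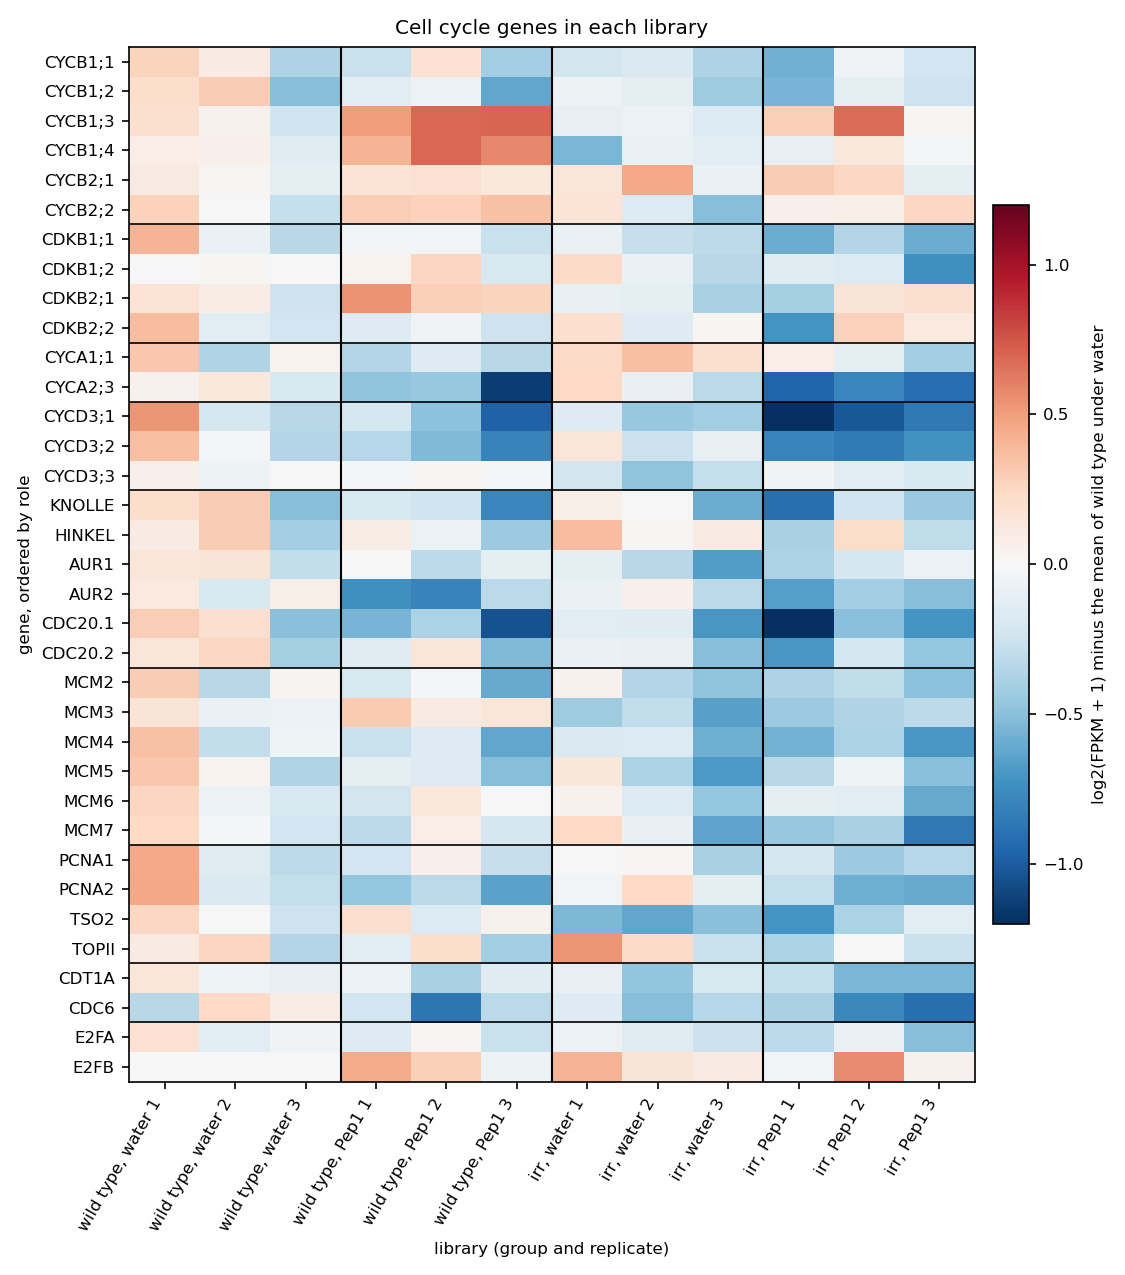
Each row is 1 of 35 cell cycle genes and each column 1 of 12 libraries, and colour gives log2(FPKM + 1) minus the gene's mean in the 3 wild-type libraries with water. Most rows are blue in the Pep1 columns, CYCB1;3 and CYCB1;4 are red in wild type with Pep1, and the first wild-type library with water is redder than the third.

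Which of these genes respond to Pep1 was asked first of the effect averaged over both genotypes, which uses all 12 libraries. With Pep1 5 genes fell, namely CYCA2;3, CYCD3;1, CYCD3;2, the Aurora kinase gene AUR2 and the clamp gene PCNA2, and 2 rose, the mitotic cyclin genes CYCB1;3 and CYCB1;4. The 7 called genes are 22.6% of the 31 tested, where 11.6% of all tested genes were called. Those that rose are 6.45% against 6.10% of all genes, and those that fell are 16.1% against 5.45%. Of the 31 tested genes 22 had a negative value, with a median of -0.20 against 0.02 over all tested genes, of which 54.1% had a positive value. The count of called genes was 4 without wild-type water replicate 1, irr water replicate 1 or irr Pep1 replicate 2, and 3 without wild-type Pep1 replicate 2 or 3. In whole seedlings, fewer dividing cells and less RNA per cell cannot be told apart.

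The effect of genotype averaged over treatments asked which genes differ in irr whatever the treatment. In irr 3 genes were lower, the helicase gene MCM3, the reductase gene TSO2 and CYCB1;4, and 0 were higher. They are 9.68% of the tested 31, where 12.4% of all tested genes were called in either direction and 3.90% were called lower. Negative values were found in 25 of the 31, with a median of -0.19 against -0.0030 over all tested genes, of which 49.4% had a positive value. As for Pep1, the genes varied together within groups, so this is not a count of separate observations. Without wild-type water replicate 1 only MCM3 was called. The plot of averaged effects shows both sets of values.

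**Figure D2:**
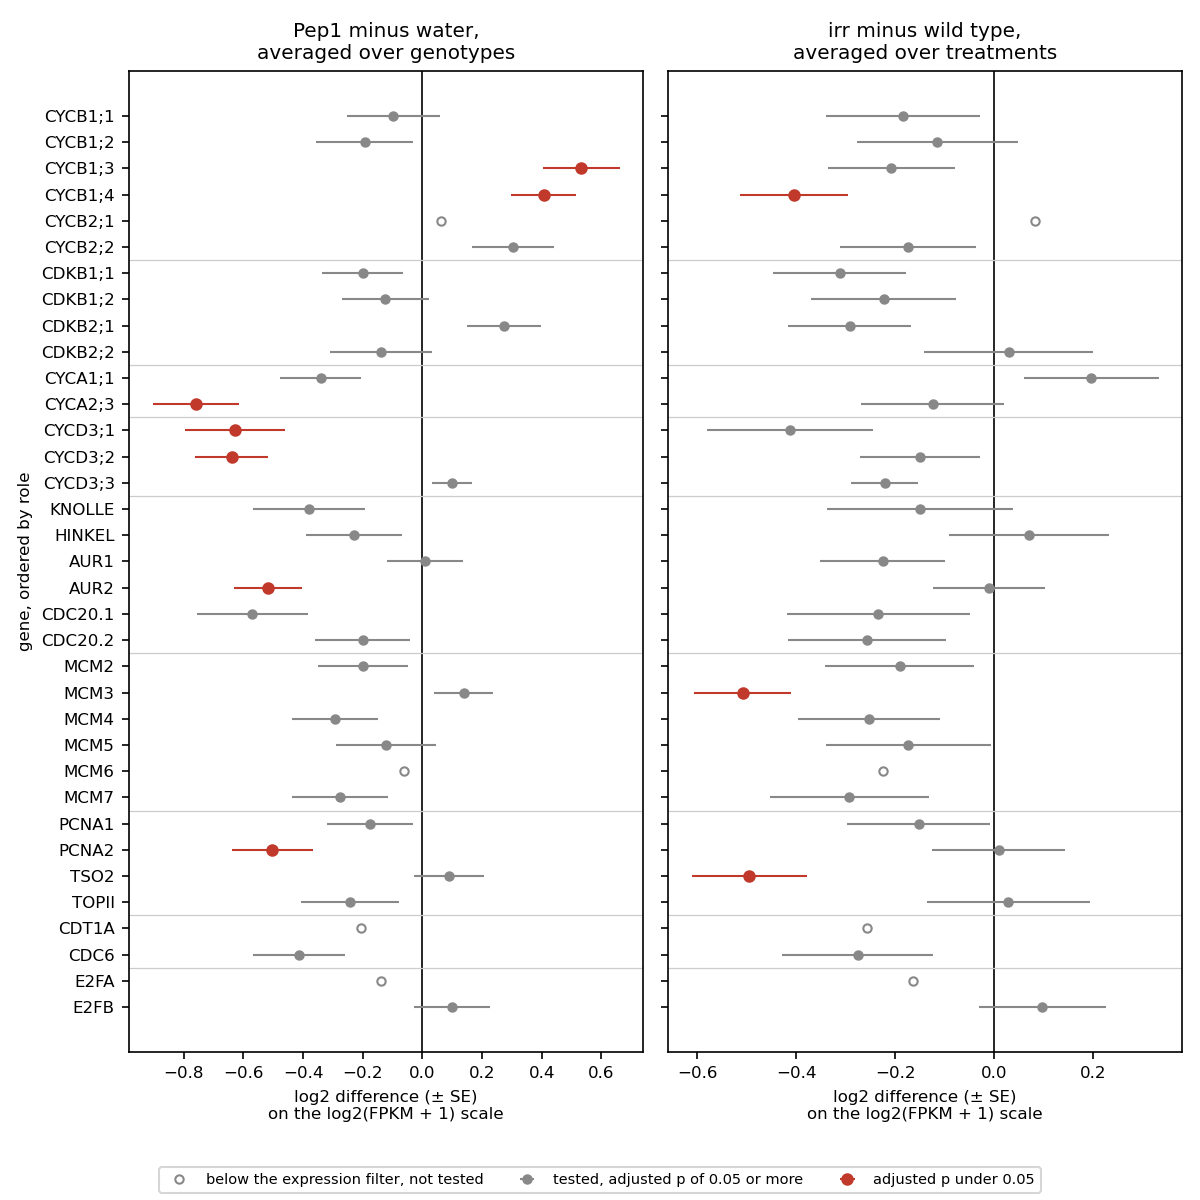
Log2 differences with SE for each of the 35 genes, Pep1 minus water on the left and irr minus wild type on the right, with called genes in red and the 4 genes below the expression filter as open circles. CYCA2;3 lies farthest to the left for Pep1 at -0.76, and MCM3 for irr at -0.51.

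The D3 cyclins, which promote entry into the cycle, had different values. Levels of CYCD3;2 (AT5G67260) were 37.3, 28.5 and 22.4 FPKM in wild type with water, 22.4, 19.7 and 16.1 in wild type with Pep1, 31.9, 23.98 and 26.9 in irr with water and 16.2, 15.6 and 16.99 in irr with Pep1. In irr every Pep1 library lay below every water library, and in wild type the groups met at 22.4 FPKM. Its averaged Pep1 difference was -0.64 ± 0.12 (adjusted p = 0.00856). For CYCD3;1 (AT4G34160) the levels were 10.2, 5.76 and 5.18 FPKM in wild type with water, 5.72, 4.51 and 2.96 in wild type with Pep1, 5.96, 4.69 and 4.81 in irr with water and 2.26, 2.85 and 3.29 in irr with Pep1. In irr the Pep1 and water libraries did not overlap, and in wild type they did. Its averaged Pep1 difference was -0.63 ± 0.17 (adjusted p = 0.0337), and its genotype difference, -0.41 ± 0.17 (adjusted p = 0.127), missed the threshold. The Pep1 call was lost without wild-type water replicate 1, wild-type Pep1 replicates 2 or 3, irr water replicates 1 or 2 or irr Pep1 replicates 1 or 2 (adjusted p from 0.0577 to 0.0733), and with no expression filter (adjusted p = 0.0662).

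The third D3 gene, CYCD3;3 (AT3G50070), ran from 6.598 to 10.02 FPKM over the libraries. Its Pep1 difference averaged 0.10 ± 0.07 (adjusted p = 0.354). In irr with water it stood at 7.47 ± 0.784 FPKM against 9.59 ± 0.451 in wild type, without overlap, and its averaged genotype difference of -0.22 ± 0.07 (adjusted p = 0.0516) missed the threshold. Within a library, the log2 ratio of CYCD3;2 to CYCD3;3 had an averaged Pep1 difference of -0.74 (exact permutation p = 0.01, adjusted p = 0.084 over 126 tests), and that of CYCD3;1 to CYCD3;3 one of -0.73 (exact permutation p = 0.01, adjusted p = 0.084).

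The E2F factors act downstream of the D cyclins. Levels of E2FB (AT5G22220) were 1.94, 1.94 and 1.94 FPKM in wild type with water, 2.99, 2.58 and 1.82 in wild type with Pep1, 2.900, 2.28 and 2.15 in irr with water and 1.88, 3.37 and 2.04 in irr with Pep1. Its 3 wild-type water libraries were nearly equal, and the irr water libraries lay above them, while the other comparisons overlapped. The averaged differences were 0.10 ± 0.13 (adjusted p = 0.651) for Pep1 and 0.10 ± 0.13 (adjusted p = 0.653) for genotype. E2FA, below the filter, was listed at 1.23, 0.784 and 0.908 FPKM in wild type with water, 0.762, 0.995 and 0.632 in wild type with Pep1, 0.876, 0.771 and 0.641 in irr with water and 0.583, 0.859 and 0.377 in irr with Pep1. Its highest library was the first of wild type with water and its lowest the third of irr with Pep1.

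Origin licensing is represented by CDC6 and CDT1A, which load the MCM helicase. Levels of CDC6 (AT2G29680) were 1.76, 3.09 and 2.698 FPKM in wild type with water, 1.97, 0.904 and 1.77 in wild type with Pep1, 2.12, 1.44 and 1.74 in irr with water and 1.65, 1.04 and 0.851 in irr with Pep1. Its averaged Pep1 difference of -0.41 ± 0.15 (adjusted p = 0.0995) missed the threshold, and the groups overlapped in both genotypes. CDT1A stood at 1.02, 0.764 and 0.707 FPKM in wild type with water, 0.738, 0.389 and 0.6502 in wild type with Pep1, 0.702, 0.317 and 0.593 in irr with water and 0.493, 0.2502 and 0.245 in irr with Pep1. With water, its irr libraries lay below those of wild type, by a narrow margin. The log2 differences of CDT1A were -0.20 for Pep1 and -0.26 for genotype, with no test.

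Of the 6 MCM genes, which encode the subunits of the replicative helicase, all had a negative averaged genotype difference, and 1 of the 5 tested was called, where 3.90% of all tested genes were called lower and 49.4% had a positive value. Levels of MCM3 (AT5G46280) were 2.28, 1.78 and 1.79 FPKM in wild type with water, 2.66, 2.18 and 2.26 in wild type with Pep1, 1.196, 1.402 and 0.876 in irr with water and 1.18, 1.29 and 1.37 in irr with Pep1. All 6 irr libraries lay below all 6 wild-type libraries, and the averaged difference was -0.51 ± 0.10 (adjusted p = 0.00874). This call held in each alternative setting that tested the gene and with each library left out. Its Pep1 difference was 0.14 ± 0.10 (adjusted p = 0.379).

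The other helicase genes overlapped between genotypes under water. With Pep1, every irr library of MCM7 lay below every wild-type library, while MCM2, MCM4, MCM5 and MCM6 overlapped. Levels of MCM5 (AT2G07690), the highest by mean, were 3.18, 2.43 and 1.595 FPKM in wild type with water, 2.097, 1.99 and 1.34 in wild type with Pep1, 2.68, 1.57 and 1.07 in irr with water and 1.64, 2.23 and 1.36 in irr with Pep1. MCM6, the lowest, stood at 1.18, 0.736 and 0.609 FPKM in wild type with water, 0.563, 0.992 and 0.828 in wild type with Pep1, 0.897, 0.626 and 0.319 in irr with water and 0.6904, 0.656 and 0.199 in irr with Pep1. The genotype differences were -0.17 ± 0.17 (adjusted p = 0.53) for MCM5 and -0.22, untested, for MCM6. MCM2 (AT1G44900), MCM4 (AT2G16440) and MCM7 (AT4G02060) ran from 0.571 to 1.95 FPKM, 0.746 to 2.601 FPKM and 0.838 to 2.94 FPKM, with genotype differences of -0.19 ± 0.15, -0.25 ± 0.14 and -0.29 ± 0.16, none called.

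TSO2, a small subunit of ribonucleotide reductase, differed by genotype. Levels of TSO2 were 14.3, 11.9 and 9.81 FPKM in wild type with water, 13.9, 10.5 and 12.3 in wild type with Pep1, 7.86, 7.36 and 8.11 in irr with water and 6.83, 8.92 and 10.8 in irr with Pep1. The 3 irr water libraries lay below all 6 wild-type libraries, while irr Pep1 replicate 3 reached into the wild-type range. The averaged genotype difference was -0.49 ± 0.12 (adjusted p = 0.0198) and the Pep1 difference 0.09 ± 0.12 (adjusted p = 0.653). The call was lost without wild-type water replicate 1 or wild-type Pep1 replicate 1 (adjusted p from 0.0505 to 0.0541).

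Of the 2 genes for the clamp, 1 fell with Pep1. Levels of PCNA2 (AT2G29570) were 8.58, 5.17 and 4.69 FPKM in wild type with water, 4.05, 4.56 and 3.44 in wild type with Pep1, 5.82, 7.21 and 5.47 in irr with water and 4.71, 3.64 and 3.56 in irr with Pep1. In both genotypes every Pep1 library lay below every water library, and the averaged Pep1 difference was -0.50 ± 0.13 (adjusted p = 0.034), with a genotype difference of 0.01 ± 0.13. This call was lost without wild-type water replicate 1, wild-type Pep1 replicates 1, 2 or 3, irr water replicates 1 or 2 or irr Pep1 replicate 2 (adjusted p from 0.052 to 0.0861), and with no expression filter (adjusted p = 0.0642). PCNA1 (AT1G07370), the lowest of the group, stood at 2.798, 1.51 and 1.24 FPKM in wild type with water, 1.37, 1.901 and 1.29 in wild type with Pep1, 1.79, 1.79 and 1.12 in irr with water and 1.41, 1.05 and 1.19 in irr with Pep1. Its groups overlapped, with a Pep1 difference of -0.18 ± 0.14 (adjusted p = 0.455). TOPII (AT3G23890), the topoisomerase that untangles sister DNA, ran from 1.77 to 4.29 FPKM and had a Pep1 difference of -0.24 ± 0.16 (adjusted p = 0.357).

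The A-type cyclins act in S phase and early mitosis. Levels of CYCA2;3 (AT1G15570) were 2.61, 2.802 and 2.06 FPKM in wild type with water, 1.49, 1.54 and 0.578 in wild type with Pep1, 3.11, 2.26 and 1.78 in irr with water and 0.796, 1.02 and 0.8499 in irr with Pep1. In both genotypes every Pep1 library lay below every water library, and the averaged difference of -0.76 ± 0.14 (adjusted p = 0.00857) was the largest of the 35 genes in size. The call held in each alternative that tested the gene, with values from -1.196 at a pseudocount of 0.1 to -0.30 at a pseudocount of 5. CYCA1;1 (AT1G44110) stood at 1.51, 0.568 and 1.07 FPKM in wild type with water, 0.579, 0.814 and 0.603 in wild type with Pep1, 1.36, 1.59 and 1.302 in irr with water and 1.13, 0.872 and 0.512 in irr with Pep1. It was lowest in the Pep1 groups, but wild type overlapped, and its Pep1 difference of -0.34 ± 0.14 (adjusted p = 0.122) missed the threshold. Its genotype difference of 0.20 ± 0.14 (adjusted p = 0.363) was the highest of the 35, followed by that of E2FB and an untested 0.08 for CYCB2;1.

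The B-type kinases, which partner mitotic cyclins and are known from plants, had 0 called genes in each contrast. Levels of CDKB2;1 (AT1G76540) were 5.57, 5.24 and 3.94 FPKM in wild type with water, 7.56, 6.18 and 6.05 in wild type with Pep1, 4.503, 4.43 and 3.49 in irr with water and 3.45, 5.53 and 5.701 in irr with Pep1. In wild type the 3 Pep1 libraries lay above the water libraries, and in irr they overlapped. The averaged differences were 0.27 ± 0.12 (adjusted p = 0.172) for Pep1 and -0.29 ± 0.12 (adjusted p = 0.143) for genotype. CDKB1;2 (AT2G38620), the lowest, stood at 0.937, 0.967 and 0.936 FPKM in wild type with water, 1.003, 1.33 and 0.703 in wild type with Pep1, 1.28, 0.843 and 0.542 in irr with water and 0.766, 0.734 and 0.169 in irr with Pep1. Its groups overlapped in each of the 4 comparisons. CDKB1;1 (AT3G54180) ran from 0.597 to 2.21 FPKM and CDKB2;2 (AT1G20930) from 1.603 to 4.55 FPKM, with Pep1 differences of -0.20 ± 0.13 and -0.14 ± 0.17.

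Among the B-type cyclins, which drive mitosis, the Pep1 differences went both ways. Levels of CYCB1;3 (AT3G11520) were 1.097, 0.901 and 0.552 FPKM in wild type with water, 1.59, 1.96 and 1.99 in wild type with Pep1, 0.718, 0.7504 and 0.636 in irr with water and 1.24, 1.92 and 0.867 in irr with Pep1. Every Pep1 library lay above every water library in both genotypes, and the averaged difference was 0.53 ± 0.13 (adjusted p = 0.0223). The call was lost without wild-type Pep1 replicates 2 or 3 (adjusted p from 0.0541 to 0.0562). CYCB1;4 (AT2G26760) stood at 2.001, 1.96 and 1.57 FPKM in wild type with water, 2.77, 3.57 and 3.25 in wild type with Pep1, 0.937, 1.68 and 1.61 in irr with water and 1.66, 2.11 and 1.79 in irr with Pep1.

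Wild type with Pep1 lay above all other libraries of CYCB1;4, while in irr the Pep1 and water libraries overlapped at their edges. Its averaged Pep1 difference was 0.41 ± 0.11 (adjusted p = 0.0351) and its genotype difference -0.40 ± 0.11 (adjusted p = 0.0341), so it is the 1 gene called in both. The Pep1 call was lost without wild-type water replicates 1, 2 or 3, wild-type Pep1 replicates 2 or 3, irr water replicate 1 or irr Pep1 replicate 2 (adjusted p from 0.0574 to 0.086), with equal library medians (adjusted p = 0.0568) and with quantile normalization (adjusted p = 0.0529). The genotype call was lost without wild-type water replicates 1 or 2, wild-type Pep1 replicates 2 or 3, irr water replicate 1 or irr Pep1 replicate 1 (adjusted p from 0.065 to 0.0801).

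CYCB1;2 (AT5G06150), the highest B cyclin, stood at 4.08, 4.41 and 2.08 FPKM in wild type with water, 3.01, 3.198 and 1.84 in wild type with Pep1, 3.22, 3.09 and 2.27 in irr with water and 1.99, 3.06 and 2.698 in irr with Pep1. Wild-type water replicates 1 and 2 were the highest and all groups overlapped, with a Pep1 difference of -0.19 ± 0.16 (adjusted p = 0.466). CYCB2;1 stood at 0.412, 0.321 and 0.209 FPKM in wild type with water, 0.465, 0.4901 and 0.427 in wild type with Pep1, 0.455, 0.798 and 0.242 in irr with water and 0.621, 0.5602 and 0.206 in irr with Pep1. CYCB1;1 (AT4G37490) and CYCB2;2 (AT4G35620) ran from 0.277 to 1.28 FPKM and 0.339 to 1.43 FPKM, with Pep1 differences of -0.10 ± 0.16 (adjusted p = 0.714) and 0.30 ± 0.14 (adjusted p = 0.17).

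Of the 6 genes of mitosis and cytokinesis, 5 had a negative Pep1 value and 1 was called, where 5.45% of all tested genes were called lower and 54.1% had a positive value. Levels of AUR2 (AT2G25880), a kinase of the spindle and cell plate, were 4.76, 3.66 and 4.59 FPKM in wild type with water, 2.19, 2.05 and 3.25 in wild type with Pep1, 4.03, 4.55 and 3.26 in irr with water and 2.36, 2.99 and 2.74 in irr with Pep1. Every Pep1 library lay below every water library in both genotypes, and the averaged difference was -0.52 ± 0.11 (adjusted p = 0.0152), called in each alternative that tested it and with each library left out. Its copy AUR1 (AT4G32830) ran from 1.25 to 2.99 FPKM with a Pep1 difference of 0.01 ± 0.13 (adjusted p = 0.973).

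KNOLLE, the syntaxin of the cell plate, stood at 9.84, 10.6 and 5.56 FPKM in wild type with water, 7.23, 6.94 and 4.43 in wild type with Pep1, 8.85, 8.41 and 5.19 in irr with water and 4.01, 6.92 and 5.89 in irr with Pep1. Its groups overlapped, and its Pep1 difference was -0.38 ± 0.19 (adjusted p = 0.205). HINKEL (AT1G18370), a kinesin of cytokinesis and the lowest of this group, stood at 1.57, 1.97 and 0.812 FPKM in wild type with water, 1.56, 1.28 and 0.773 in wild type with Pep1, 2.102, 1.43 and 1.57 in irr with water and 0.838, 1.79 and 0.9395 in irr with Pep1. Its libraries overlapped in every comparison (Pep1 difference -0.23 ± 0.16, adjusted p = 0.378). CDC20.1 (AT4G33270), an activator of the anaphase-promoting complex, ran from 1.92 to 7.196 FPKM with a Pep1 difference of -0.57 ± 0.19 (adjusted p = 0.0663), and its neighbour CDC20.2 (AT4G33260) ran from 1.15 to 3.15 FPKM with -0.20 ± 0.16 (adjusted p = 0.436). The plot of called genes shows the libraries behind these values.

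**Figure D3:**
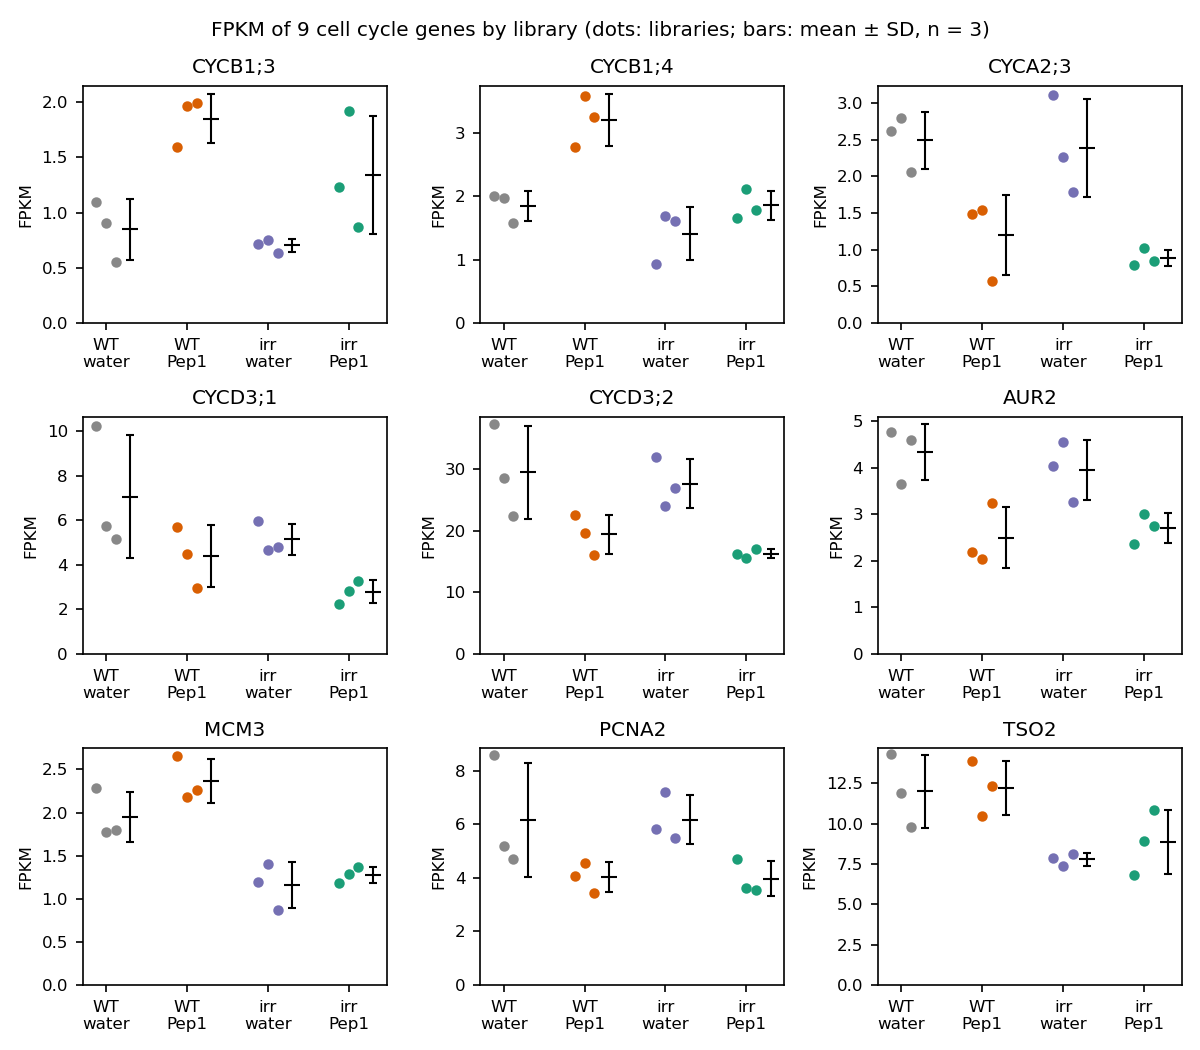
FPKM of the 9 genes called in an averaged contrast, with 1 dot per library and a bar for the mean and SD of 3. MCM3 is lower in both irr groups, and CYCA2;3, AUR2 and PCNA2 are lower in both Pep1 groups.

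None of the 4 comparisons of single groups called any of these genes. For Pep1 in wild type, 0 of 31 were called against 3.47% of all tested genes, and 9 had an unadjusted p under 0.05, or 29.0% against 20.9%, 2 of them higher and 7 lower. The highest differences were those of CYCB1;3 (0.63 ± 0.18), CYCB1;4 (0.56 ± 0.16) and CDKB2;1 (0.37 ± 0.18), and the lowest those of CYCA2;3 (-0.69 ± 0.20), CDC20.1 (-0.66 ± 0.26) and AUR2 (-0.62 ± 0.16). The smallest adjusted p was 0.0564. The Pep1 and water libraries did not overlap in 3 of the 31 genes that were higher, or 9.68% against 20.8% of all tested genes, and in 3 that were lower, or 9.68% against 12.6%. Untested CYCB2;1 was also higher without overlap.

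For Pep1 in irr, 0 were called against 1.99% of all genes. An unadjusted p under 0.05 was found for 6, or 19.4% against 18.2%, 1 higher and 5 lower. The highest were CYCB1;3 (0.44 ± 0.18), CYCB2;2 (0.30 ± 0.19) and CYCB1;4 (0.25 ± 0.16), and the lowest CYCA2;3 (-0.83 ± 0.20), CYCD3;2 (-0.72 ± 0.17) and CYCD3;1 (-0.70 ± 0.24). The groups did not overlap in 2 higher genes of the 31, or 6.45% against 7.03%, and in 7 lower ones, or 22.6% against 10.8%.

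For irr against wild type with water, 0 were called against 3.92% of all genes. An unadjusted p under 0.05 was found for 3, all lower, or 9.68% against 21.9%. The highest were CYCA1;1 (0.26 ± 0.19), E2FB (0.22 ± 0.18) and, untested, CYCB2;1 (0.18), and the lowest TSO2 (-0.55 ± 0.17), MCM3 (-0.45 ± 0.14) and AUR1 (-0.37 ± 0.18). The groups did not overlap in 1 higher gene of the 31, or 3.23% against 17.7%, and in 3 lower ones, or 9.68% against 10.4%. Untested CDT1A was also lower without overlap.

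For irr against wild type with Pep1, 0 were called against 1.53% of all genes. An unadjusted p under 0.05 was found for 4, all lower, or 12.9% against 17.7%. CYCA1;1 (0.13 ± 0.19), AUR2 (0.09 ± 0.16) and CDKB2;2 (0.04 ± 0.24) were the highest and the 3 genes with a positive value, and MCM3 (-0.56 ± 0.14), CYCB1;4 (-0.56 ± 0.16) and CYCD3;1 (-0.48 ± 0.24) the lowest. The groups did not overlap in 0 higher genes of the 31, against 10.4%, and in 7 lower ones, or 22.6% against 12.8%. The 4 comparisons share groups in pairs, so their values are not independent of each other.

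The interaction asked whether the Pep1 difference depends on genotype. It was called for 0 of 31 genes by limma, against 0% of all tested genes, and 0 of 31 had an unadjusted p under 0.05, against 6.71%. The highest values were those of AUR1 (0.30 ± 0.25), MCM5 (0.27 ± 0.33) and CYCD3;3 (0.21 ± 0.13), and the lowest those of CDKB1;2 (-0.32 ± 0.29), CYCB1;4 (-0.30 ± 0.22) and TOPII (-0.27 ± 0.33). A difference of response between the genotypes was therefore not detectable with 3 libraries a group, which does not show that they respond alike.

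Related copies were set against each other within each library. The ratio of PCNA2 to PCNA1 was above 1 in all 12 libraries, from 2.40 to 4.87, and that of CDC20.1 to CDC20.2 from 1.44 to 2.51. The latter averaged 2.29 ± 0.202 in wild type with water and 1.55 ± 0.0978 with Pep1 (SD, n = 3), without overlap, and 2.19 ± 0.0454 and 1.83 ± 0.170 in irr, also without overlap. On the log2(FPKM + 1) scale the averaged Pep1 difference of this ratio was -0.37, and that of the ratio of PCNA1 to PCNA2 was 0.33. Each had an exact permutation p of 0.005, the smallest that 400 arrangements allow, and an adjusted p of 0.07 over 126 tests.

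The ratio of AUR2 to AUR1 ran from 0.844 to 2.59 and was above 1 in 11 libraries, that of CDKB2;1 to CDKB2;2 from 1.04 to 2.65, and that of CDKB1;1 to CDKB1;2 from 0.784 to 3.53. The log2 ratio of AUR1 to AUR2 had an averaged Pep1 difference of 0.53 (exact permutation p = 0.01, adjusted p = 0.084). Over all 63 pairs within roles and both averaged contrasts, 0 of 126 passed after adjustment. An unadjusted exact permutation p under 0.05 was found for 25 of the 63 with Pep1 and 9 with genotype. Pairs of a role share genes, so these tests are not independent of each other. The share for pairs of other genes was not computed, so these counts have no background beside them. The members of a pair are close copies, and CDC20.1 and CDC20.2 are neighbouring genes, so how reads were divided between them is uncertain.

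**Figure D4:**
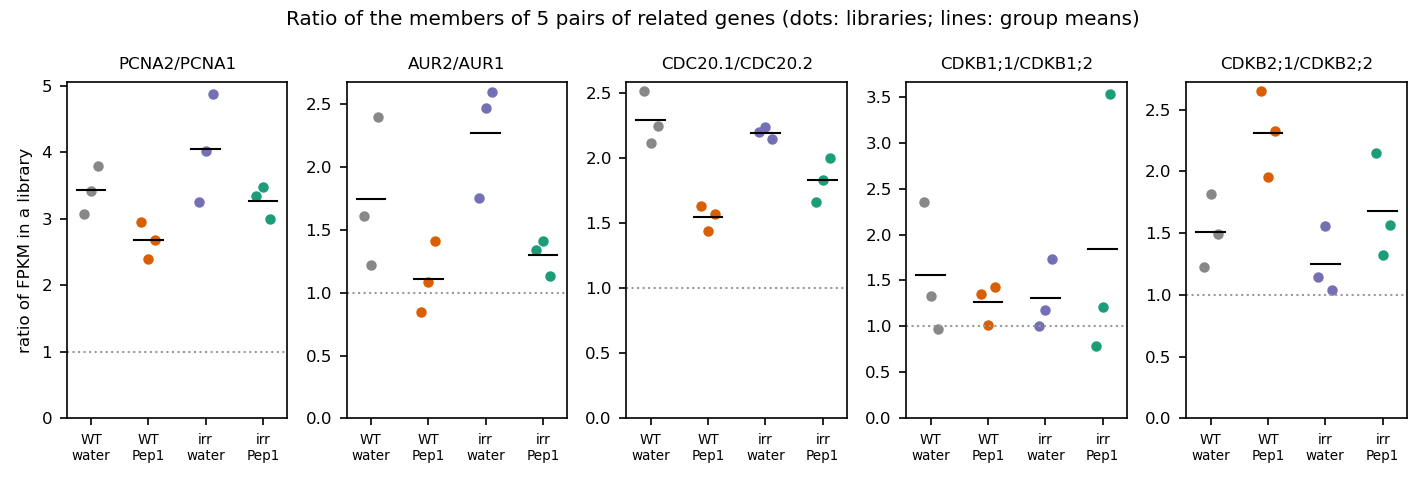
Ratio of FPKM between the members of 5 pairs of related genes, with 1 dot per library, a line for the group mean and a dotted line at 1. The CDC20.1 to CDC20.2 ratio is lower in the Pep1 groups of both genotypes.

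Libraries of a group also differed together in these genes. Deviations from the group means, over 12 libraries, had a mean Pearson's r of 0.353 between the 35 genes and 0.368 between the 31 tested, against 0.0588 between all 18177 tested genes. Values of a library share its depth and its pool of plants, and this is a description with no test. Within roles the mean was 0.648 for the 2 E2F factors, 0.635 for the MCM genes, 0.532 for the 2 licensing genes, 0.526 for the D3 cyclins and 0.504 for mitosis and cytokinesis. It was 0.384 for the B-type cyclins, 0.372 for the B-type kinases, 0.355 for the clamp, nucleotide and topoisomerase genes and 0.0035 for the 2 A-type cyclins. The highest pairs were CDC20.1 with KNOLLE (0.977), KNOLLE with CYCB1;2 (0.970) and CDC20.1 with CDC20.2 (0.970). PCNA1 and PCNA2 had 0.912. CDC6 and CYCB1;1 were the most opposed pair at -0.703.

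In wild-type water replicate 1, 32 of 35 genes lay above their group mean, with a median deviation of 0.21, and in replicate 3 of that group 5 did, with -0.24. In irr with water 31 were above in replicate 1 and 5 in replicate 3. In wild type with Pep1 replicate 3 had 9 above, and in irr with Pep1 replicate 2 had 28. Wild-type water replicate 1, the highest, held 28.6 M reads and irr water replicate 3, the deepest, 56.5 M, and the part of depth in these deviations was not tested. The median deviation of all tested genes stayed between -0.083 and 0.041 in these 12 libraries. The SD between libraries of a group, for the median of the 35 genes in a library, was 0.17 on the log2 scale.

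**Figure D5:**
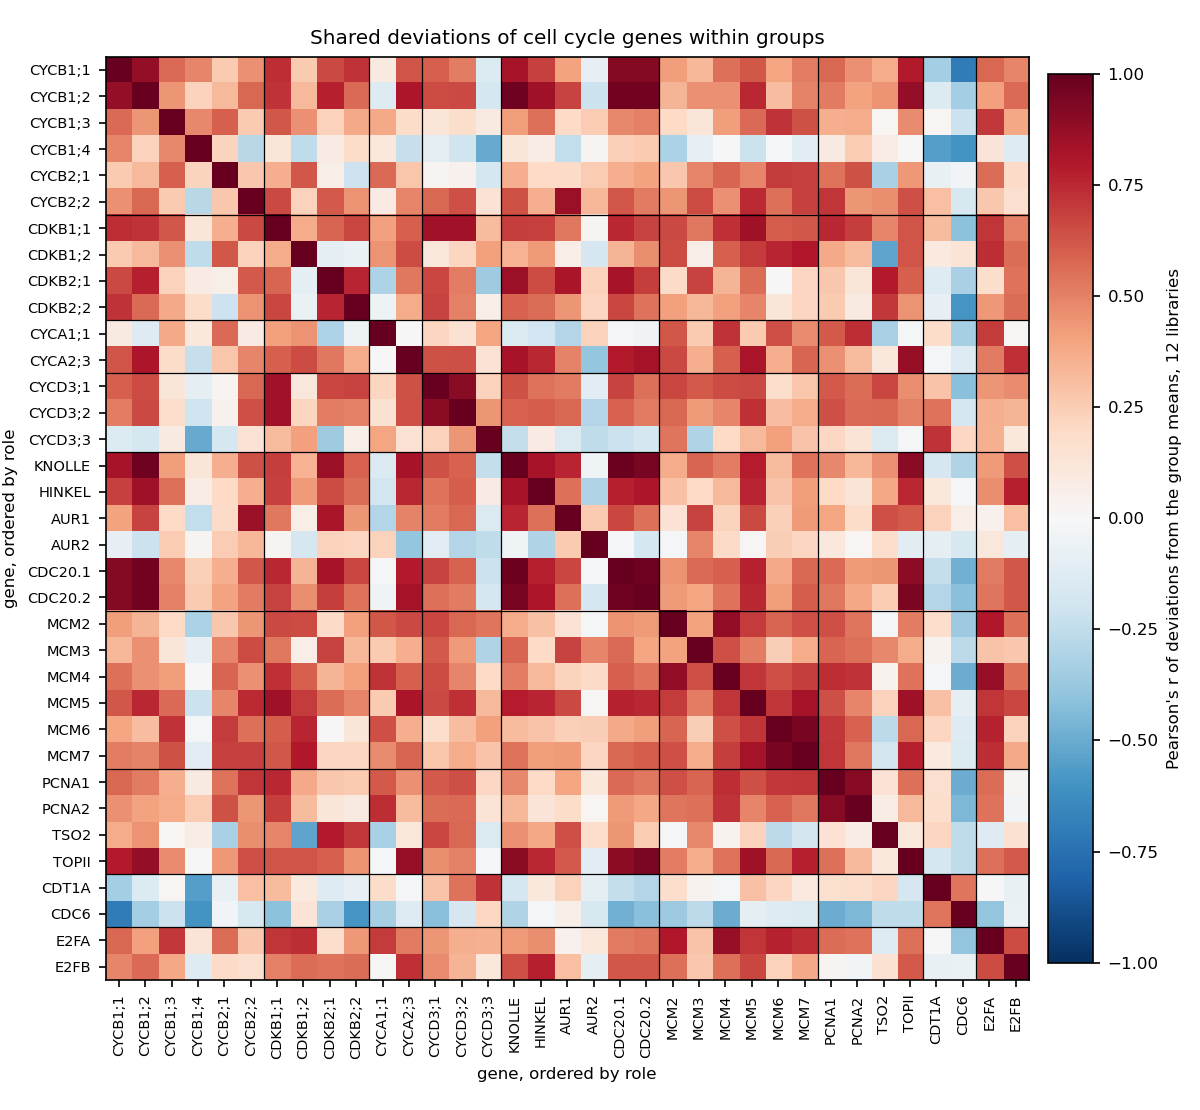
Pearson's r between deviations of each pair of 35 genes from their group means over 12 libraries, ordered by role. Most cells are red, with a block of CYCB1;1, CYCB1;2, KNOLLE, the CDC20 genes and TOPII dark red throughout, while the r with the mean of the other genes lies between -0.030 and 0.139 for CYCB1;4, AUR2, CDT1A and CYCD3;3 and at -0.380 for CDC6.

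Other genes of the cycle were read from further lists. With Pep1 averaged over genotypes, the cyclins CYCA2;2 (AT5G11300) and CYCD1;1 (AT1G70210) rose by 0.66 and 0.42, so 2 of 10 tested cyclins and kinases outside the 35 rose and 0 fell (median over the list -0.11). Over all tested genes 6.10% rose and 5.45% fell, and the counts of 1 that follow lie near that share. Among 11 tested replication genes 1 fell, the origin recognition gene ORC5 (AT4G29910), at -0.34 ± 0.09 (adjusted p = 0.0361), with a median of -0.05 over all 18 listed. Among 13 genes of spindle, checkpoint and cytokinesis 1 fell, MAP65-3 (AT5G51600), which bundles microtubules in the phragmoplast (-0.47 ± 0.12, adjusted p = 0.0318), with a median of -0.08. Of the CDK inhibitors, RBR and MYB3R regulators and DNA damage genes 0 of 13, 10 and 8 passed.

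In irr averaged over treatments, 3.90% of all tested genes were lower and 8.55% higher. Here 2 of the 11 replication genes were lower, ORC4 (AT2G01120), at -0.42 ± 0.12 (adjusted p = 0.0395) and the large reductase subunit RNR1 (AT2G21790), at -0.41 ± 0.12 (adjusted p = 0.0468), and 0 were higher. Of 13 CDK inhibitors 1 was lower, SIM (AT5G04470), which restrains division in trichomes (-0.48 ± 0.07, adjusted p = 0.00325). CYCD1;1 was lower, at -0.44 ± 0.09 (adjusted p = 0.0113), opposite in sign to its Pep1 value. Among the spindle and cytokinesis genes AUR3 (AT2G45490) was lower (-0.57 ± 0.17, adjusted p = 0.0429) and KEU (AT1G12360), a partner of KNOLLE, higher (0.24 ± 0.07, adjusted p = 0.0462). The repair gene PARP2 (AT4G02390) was lower (-0.58 ± 0.17, adjusted p = 0.0448), as 1 of 8 DNA damage genes, and 0 of 10 RBR, E2F, DP and MYB3R regulators passed. In that last list DPB (AT5G03415) and RBR1 (AT3G12280) had the highest levels, 5.01 to 7.02 FPKM and 4.46 to 6.77 FPKM.

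In single groups 3 genes of these lists were called. Each was the only one of its list in its comparison, of 13 tested CDK inhibitors or 11 tested replication genes. Over all tested genes 1.99% were called for Pep1 in irr, 3.92% for irr with water and 1.53% for irr with Pep1. With lists this short, a single call is not read as a result about the list. The CDK inhibitor KRP4 (AT2G32710) was lower with Pep1 in irr (-0.57 ± 0.12, adjusted p = 0.0387) and higher in irr with water (0.48 ± 0.12, adjusted p = 0.0494), 2 comparisons that share the irr water libraries. ORC5 was lower with Pep1 in irr (-0.58 ± 0.13, adjusted p = 0.0489), and SIM was lower in irr with Pep1 (-0.59 ± 0.10, adjusted p = 0.0204).

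Markers of tissue were read beside these results, and their part in them was not tested. The sum of 4 green leaf markers was 32992 to 37749 FPKM in wild type with water, 19788 to 25993 with Pep1, 24333 to 29000 in irr with water and 17091 to 26190 with Pep1. LHCB1.1 (AT1G29920) and RBCS1A (AT1G67090) fell with Pep1, as 2 of the 4, with differences of -0.55 ± 0.16 (adjusted p = 0.0426) and -0.38 ± 0.10 (adjusted p = 0.0289). Of the 35 genes, 21 had their highest mean in wild type with water. The share of all tested genes with their highest mean in that group was not computed, so this count has no background beside it.

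The sum of 5 root meristem markers was 13.7 to 17.1 FPKM over all 12 libraries, with SCR (AT3G54220) and SHR (AT4G37650) the highest and WOX5, which marks the quiescent centre, listed at 0 in irr Pep1 replicate 1. The sum of 7 markers of the shoot meristem and young leaves was 18.8 to 23.6 FPKM in wild type with water, 17.3 to 23.9 with Pep1, 11.2 to 25.1 in irr with water and 14.3 to 20.05 with Pep1, with the stem cell genes CLV3 and WUS each listed at 0 in 10 of 12 libraries and GIF1 (AT5G28640) and KNAT1 (AT4G08150) the highest. Only 2 of the 5 and 5 of the 7 were tested, and of these 0 were called in an averaged contrast. Of 4 markers of differentiated root, 2 of them tested, EXPA7 (AT1G12560), an expansin of root hairs, fell with Pep1 in irr (-1.83 ± 0.36, adjusted p = 0.0312). The Pep1 differences of the 4 went both ways. In irr they ran from -1.83 to 0.65, 1 of them positive, and in wild type from -0.03 to 1.07, 3 of them positive. The sums were 10.7 to 16.4 FPKM in wild type with water and 22.6 to 33.0 with Pep1. In irr they were 13.2 to 22.3 (median 15.4) with water and 9.91 to 25.9 (median 24.5) with Pep1.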

How the data were processed

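RNA sequencing of 12 seedling libraries was used. The authors deposited FPKM values for 32846 genes, each library in its own column. How reads were aligned and counted, and on which build and annotation, is not given in the sources used here, so no coordinates or sequences are printed, and promoter motifs and protein identities were not used here. Gene names were checked against RefSeq TAIR10.1, where 31912 identifiers matched. Library totals, with a median of 20.2 M, were recovered as whole reads from the steps of the FPKM values, within 0.06 of a read. Depth thus gives counting error only, since reads can be copies of 1 molecule.

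Genes with at least 1 FPKM in at least 3 libraries (18177) were fitted as log2(FPKM + 1), a pseudocount of 1, with a mean for each group by limma 3.58.1 (R 4.3.3), a mean-variance trend and 8 residual degrees of freedom. Two-sided p-values were adjusted by Benjamini-Hochberg across the tested genes per contrast, and 0.05 was the threshold. The fit was also run on simulated data, in which genes vary independently of each other. That run lacks the shared deviations described above, so no conclusion about these genes is drawn from it. Log2 ratios of 63 pairs of genes within a role were compared by an exact two-sided permutation test within strata, with adjustment over 126 tests. These ratios, and the shared deviations, were added after values had been seen.

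The 35 genes and the lists were chosen with earlier results of these data known. Of the entries of the further lists, 11 were dropped, which left 103 genes. Dropped were entries whose names the reference did not match, and the whole list of histone H4 genes. That list included HIS4 (AT2G28740), whose name did match. Values in every library are given for called genes and for the highest and lowest of each role, the 3 highest and 3 lowest differences of each contrast are named, and called genes are named from each further list, up to 4, or the 2 with the highest mean where none was called. Alternatives were other pseudocounts and filters, quantile normalization, equal medians of the libraries, a block on replicate number, library quality weights, no trend, fits restricted to the groups compared, and omission of each library.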

Additional observations from a re-analysis of the deposited data

How the results depend on the processing

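Of the 9 genes called, CYCA2;3, CYCD3;2, AUR2 and MCM3 kept their call in each alternative that tested them, and 0 values of called genes reversed. Pep1 averaged over genotypes gave 2 called genes, CYCD3;2 and PCNA2, when a mean FPKM of 5 or more was required. Only 6 of the 35 genes reach that mean, so the others were not tested in that setting. For Pep1 in wild type the count went from 0 to 1 (AUR2) with quantile normalization, and to 3 (CYCB1;3, CYCB1;4 and AUR2) both in a fit restricted to those groups and with library quality weights. For Pep1 in irr it was 1 (CYCA2;3) with equal library medians or quantile normalization, and 2 with quality weights (CYCA2;3 and CYCD3;2). For irr with water it was 1 (CYCD3;3) with equal medians or quantile normalization. For irr with Pep1 it was 4 with quality weights (CYCB1;4, CDKB2;1, MCM3 and TSO2) and 1 (MCM3) with no trend. For irr averaged over treatments it was 5 with quality weights, with CDKB2;1 and CYCD3;3 beside the 3 of the main result. The share of all tested genes called under each alternative is not printed beside the counts here and below. They thus do not show whether calls changed in these genes in particular. The cause was not tested.

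With each library left out in turn, the count ran from 3 to 8 for Pep1 averaged and from 1 to 3 for irr averaged. It ran from 0 to 1 for Pep1 in wild type (CYCD3;2 without wild-type water replicate 3, CYCB1;3 without irr Pep1 replicate 2 or 3) and for Pep1 in irr (CYCD3;2 without wild-type water replicate 1 or 3 or irr Pep1 replicate 3, CYCA2;3 without wild-type Pep1 replicate 3). It also ran from 0 to 1 for both genotype comparisons, with TSO2 under water and MCM3 with Pep1, each without irr Pep1 replicate 3. The replicate number as a block gave 8 genes for Pep1 averaged and 3 for irr averaged, and changed no count by over 1.5 times. The labels do not say that a number pairs libraries, and deviations of same-numbered libraries correlated by -0.52 to 0.19 over all pairs of groups. For wild type with water and with Pep1, the 3 same-numbered pairs (0.032 to 0.049) lay above the others (at most 0.018). For irr with water and with Pep1 the same-numbered pairs lay below the others (-0.52 to -0.24 against -0.049 to 0.35). The directions differ, so the data do not settle whether a number pairs libraries. Reads per gene, as few as 4 in a library, limit what can be seen for the lowest genes.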
